A study of Mus musculus with 24 samples.

Results

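The genes described here are 31 genes of myelin and mature oligodendrocytes, taken by symbol from the 48321 gene symbols counted in GFP-positive cells sorted from the adult mouse hippocampus. The list is a set of gene names, proposed with earlier results of these data known, and no measured value entered the rule that applies it. All 31 symbols were present in the count tables, and 30 had enough reads to be tested. Conditional knockout (CKO) mice carried Hes5::CreERT2, a tamoxifen-inducible Cre recombinase under the control of the Notch target gene Hes5, together with Notch2 flox/flox alleles and the Rosa26R-CAG::GFP reporter. Wild-type (WT) mice carried the same Hes5::CreERT2 driver and the same reporter, with Notch2 wt/wt alleles. Both genotypes were adult C57BL/6 animals that received tamoxifen for 5 days and were analysed after a chase of 1 day. There were 3 pools of sorted cells per genotype, each from more than 1 animal, and each pool was measured as 2 sequencing libraries whose reads were added. The pool is the replicate, so a p-value here reflects how pools vary and not how single animals do. A cell entered the sort wherever the driver had switched on the reporter, so the sorted cells need not be of 1 type, and the comparison asked what follows in them from the loss of the Notch2 receptor.

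Oligodendrocytes are the glial cells that wrap axons of the central nervous system in myelin, a stack of membrane sheets rich in galactolipids and cholesterol. They arise from precursor cells that first express lineage transcription factors such as Olig2 and Sox10, then pass through a committed stage, and finally switch on the myelin genes under the control of Myrf. Notch signalling is known to hold precursors back from this last step. In the adult hippocampus, myelinating cells and their precursors lie close to the stem cells of the dentate gyrus.

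Series of 3 values follow pools 1, 2 and 3 of a genotype. Reads in genes numbered 41810239 to 53984963 in the CKO pools and 40366579 to 52682485 in the WT pools. Levels are given in counts-per-million (CPM) of the library size adjusted by TMM, a scaling that assumes that most genes do not differ, and 1 read stood for 0.0175 to 0.0265 CPM. Notch2 itself had 65.3, 116 and 121 CPM in the CKO pools, against 99.3, 146 and 303 CPM in the WT pools, so the genotypes overlapped. Hes5 had 386, 399.9 and 361 CPM in the CKO pools, against 234, 408 and 495 CPM in the WT pools. Which exons of Notch2 were flanked is not given in the sources used here, so counts over the whole gene do not check the deletion. The sorted cells are labelled as hippocampal stem cells, and the summed astrocyte and radial glia markers, which such cells share, were 25631, 24058 and 37553 CPM in the CKO pools, against 24985, 26313 and 27274 CPM in the WT pools. Across all 21477 genes tested with edgeR's quasi-likelihood test, 0 genes (0%) passed an adjusted p under 0.05, with a smallest adjusted p of 0.790. There were 1269 genes at an unadjusted p under 0.05, and DESeq2 called 129 genes, or 0.633% of those to which it gave an adjusted p. WT pool 1 had the highest level of the 6 pools for 25.0% of all genes tested, and WT pool 3 for 24.5%. Labels of the pools also carry a number followed by K, namely 19, 4 and 9 for the CKO pools and 20, 12 and 2 for the WT pools, whose meaning is not given.

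Most of the listed genes were well detected in every pool of both genotypes, at unequal levels. Of the 30 tested members, 25 stood above 10 CPM and 9 above 100 CPM in all 6 pools, whereas 36.2% of all genes tested stood above 10 CPM in all 6 pools. The 9 were Mbp, Cnp, Sirt2, Plekhb1, Gsn, Enpp2, Car2, Qdpr and Cryab. The summed level of all members was 5145, 5167 and 5806 CPM in the CKO pools, against 5983, 4897 and 6849 CPM in the WT pools. The 6 compact myelin genes alone summed to 1211, 891 and 1292 CPM in the CKO pools, against 1470, 941 and 1823 CPM in the WT pools. The median member had a mean level higher than 91.0% of the genes tested. Compared per kilobase of exon, with the exons of all transcripts of a gene merged, the carbonic anhydrase Car2 (295 CPM per kilobase over the 6 pools), the small heat shock protein Cryab (269) and the myelin enzyme Cnp (170.1) had the highest mean levels. At the low end of the same scale were the homeodomain factor Nkx6-2 (0.440), the adhesion molecule Cntn2 (1.19) and Myrf (1.40), apart from Klk6, which was barely detected. In pooled cells, fewer cells of a type and less RNA per cell cannot be told apart.

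**Figure D1:**
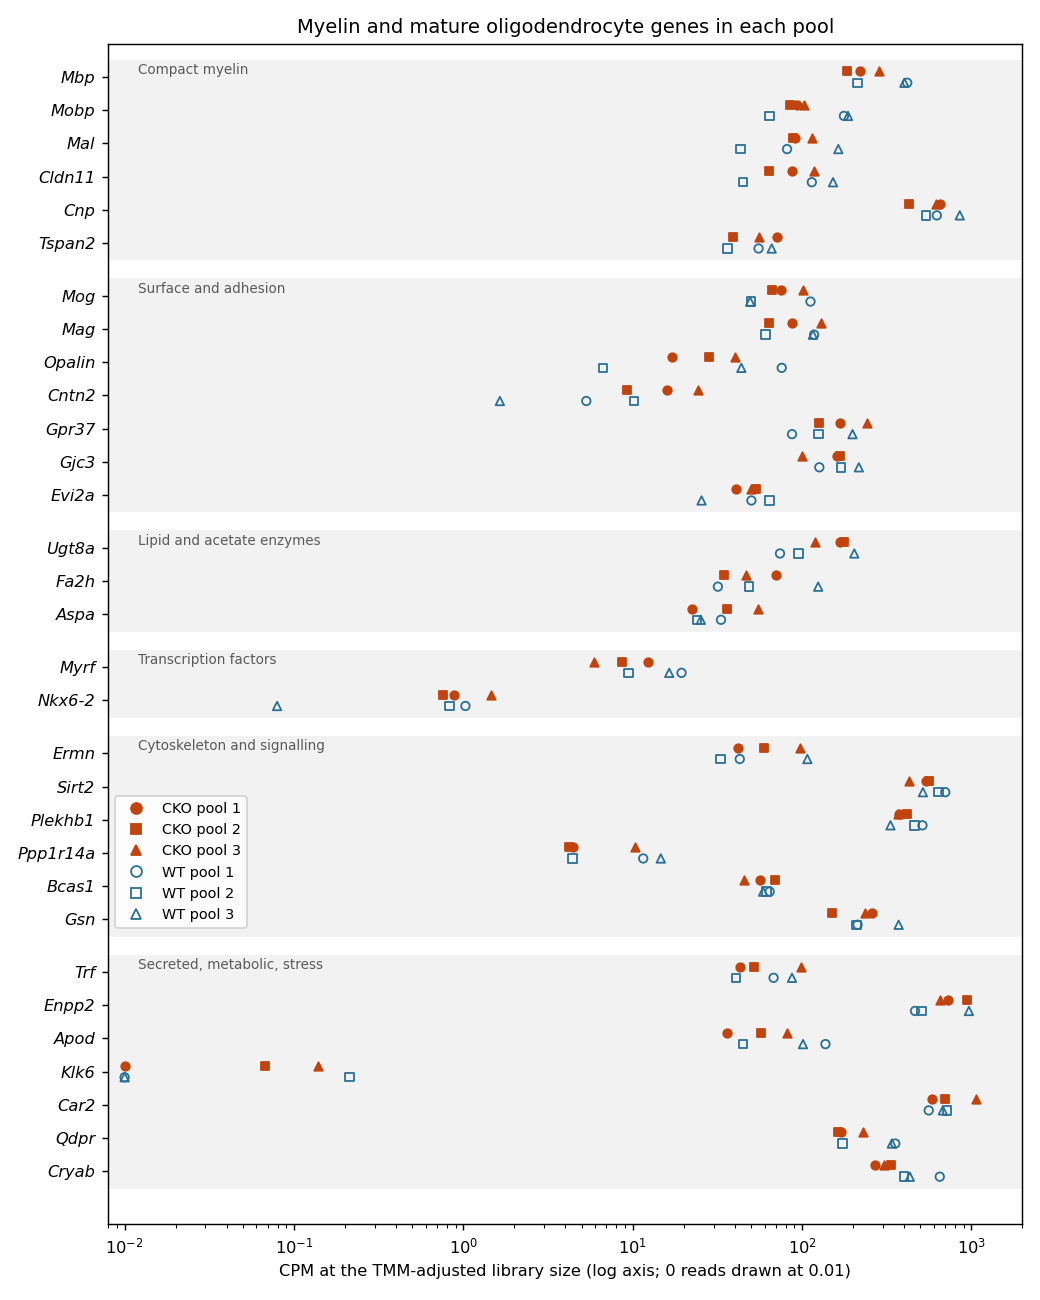
Level of each of the 31 genes in CPM on a logarithmic axis, grouped by role. Filled symbols are the 3 CKO pools and open symbols the 3 WT pools, 1 symbol per pool, and 0 reads are drawn at 0.01 CPM. The pools of the genotypes overlap for every gene except Cryab, whose 3 CKO pools lie below its 3 WT pools.

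Among the genes of compact myelin, Mbp and Mobp were lower in the 3 CKO pools than in WT pools 1 and 3, but not than in WT pool 2. Mbp (chromosome 18, 82475146 to 82585637, plus strand, GENCODE M21 on GRCm38) encodes the basic protein that holds the cytoplasmic faces of the myelin membrane together and had 219.8, 185 and 284 CPM in the CKO pools, against 418, 212 and 402 CPM in the WT pools. Mobp (chromosome 9, 120149707 to 120181484, plus strand), another small basic protein of central myelin, had 92.8, 84.5 and 103 CPM in the CKO pools, against 177, 64.2 and 187 CPM in the WT pools. For both genes WT pool 2 lay within the range of the CKO pools or below it. The log2 fold changes of CKO over WT were -0.58 (SE 0.31) for Mbp and -0.61 (SE 0.40) for Mobp, and neither passed the test (unadjusted p = 0.105, adjusted p = 0.790 in edgeR and unadjusted p = 0.173, adjusted p = 0.800 in edgeR). Leaving out single pools gave -0.78 (without WT pool 2) to -0.41 (without WT pool 1) for Mbp. For Mobp it gave -0.91 (without WT pool 2) to -0.37 (without WT pool 3).

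The other 4 compact myelin genes had log2 fold changes nearer to 0. Mal (chromosome 2, 127633226 to 127656695, minus strand), a proteolipid that sorts membrane into myelin, had 90.5, 88.8 and 115 CPM in the CKO pools, against 81.5, 43.2 and 164 CPM in the WT pools. Cldn11 (chromosome 3, 31149920 to 31164324, plus strand), which seals the myelin sheets with tight junctions, had 87.6, 64.2 and 117 CPM in the CKO pools, against 114, 44.7 and 152 CPM in the WT pools. For Mal and Cldn11 the lowest of the 6 pools was WT pool 2 and the highest WT pool 3, so that the CKO pools sat inside the range of the WT pools. Cnp (chromosome 11, 100574904 to 100591729, plus strand), a phosphodiesterase that keeps channels of cytoplasm open within myelin, had 649, 429 and 617 CPM in the CKO pools, against 624, 540.4 and 853 CPM in the WT pools. Tspan2, a tetraspanin of the myelin membrane, had 71.5, 39.1 and 55.7 CPM in the CKO pools, against 55.3, 36.2 and 66.1 CPM in the WT pools. For Cnp, CKO pool 2 was below every WT pool and WT pool 3 above every CKO pool. For Tspan2, CKO pool 1 was the highest and WT pool 2 the lowest. The log2 fold changes were 0.03 (SE 0.46) for Mal, -0.21 (SE 0.46) for Cldn11, -0.25 (SE 0.26) for Cnp and 0.08 (SE 0.34) for Tspan2. For Mal, Cldn11 and Tspan2 the sign depended on single pools, since Mal was at -0.28 without WT pool 2, Cldn11 at 0.17 without WT pool 3 and Tspan2 at -0.14 without CKO pool 1. Mal was also at -0.07 without CKO pool 3 and at -0.07 without WT pool 1, and Tspan2 at -0.08 without WT pool 2. Reads of Cnp and Tspan2 may be shared with genes on the other strand (Dnajc7, and Tspan2os, Tshb and Gm42681), because the library method does not mark strand.

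Transcripts of the myelin surface proteins did not differ in a common direction. Mog (chromosome 17, 37010743 to 37023398, minus strand), an immunoglobulin-like protein on the outermost face of the sheath, had 75.3, 66.5 and 101 CPM in the CKO pools, against 112, 49.8 and 49.4 CPM in the WT pools. Only WT pool 1 exceeded all CKO pools, and without WT pool 1 the log2 fold change was 0.72 in place of 0.20 (SE 0.39). Without WT pool 3 it was -0.01. Mag (chromosome 7, 30899176 to 30914873, minus strand), which binds the axon from the innermost wrap, had 86.8, 63.4 and 129 CPM in the CKO pools, against 118, 60.8 and 116 CPM in the WT pools and a log2 fold change of -0.08 (SE 0.37). Its pools overlapped, and WT pool 2 was the lowest. The sign of Mag turned without CKO pool 2 (0.14), WT pool 1 (0.09) or WT pool 3 (0.05). Opalin (chromosome 19, 41061710 to 41077113, minus strand), a sialylated transmembrane protein of myelinating cells, had 17.2, 28.1 and 40.2 CPM in the CKO pools, against 75.8, 6.65 and 43.8 CPM in the WT pools. The WT pools spanned an 11.4-fold range, wider than the 2.34-fold range of the CKO pools, and its log2 fold change of -0.56 (SE 0.78) was smaller than its standard error. Without WT pool 1 it was 0.18.

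RefSeq promoter windows of 300 bases, from 250 bases before a start site to 50 after it on GRCm38.p6, were available for 22 of the 31 genes as 29 windows. They were searched on both strands for the letters CTGGCAC, a motif of the myelin regulator Myrf, and ACAAAG, a motif of Sox factors such as Sox10. The letters CTGGCAC were present in 13.8% of the member windows (4 of 29) and in 5.01% of all 32851 windows. The member windows with it were 2 overlapping windows of Mag and 1 each of Cnp and Opalin. The letters ACAAAG were present in 9 of the 29 member windows and in 18.7% of all windows. TATAAA was present in 3.45% of member windows, in that of Aspa, and in 13.6% of all windows. These shares describe letters only. Mag, Cnp and Opalin were the 3 genes whose window held both motifs and are shown for that reason, read 5′ to 3′ on the strand of the gene, with each match in capitals. The reverse complements are GTGCCAG and CTTTGT. The window of Mag (its first listed) is chr7:30914814-30915113 on the minus strand, that of Cnp chr11:100574689-100574988 on the plus strand and that of Opalin chr19:41077064-41077363 on the minus strand.
Mag: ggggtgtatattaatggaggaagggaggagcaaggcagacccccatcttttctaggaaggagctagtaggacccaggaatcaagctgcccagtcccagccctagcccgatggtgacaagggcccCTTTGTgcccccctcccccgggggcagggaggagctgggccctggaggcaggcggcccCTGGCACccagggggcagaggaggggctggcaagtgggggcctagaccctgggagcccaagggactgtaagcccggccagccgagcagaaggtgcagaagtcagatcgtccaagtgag
Cnp: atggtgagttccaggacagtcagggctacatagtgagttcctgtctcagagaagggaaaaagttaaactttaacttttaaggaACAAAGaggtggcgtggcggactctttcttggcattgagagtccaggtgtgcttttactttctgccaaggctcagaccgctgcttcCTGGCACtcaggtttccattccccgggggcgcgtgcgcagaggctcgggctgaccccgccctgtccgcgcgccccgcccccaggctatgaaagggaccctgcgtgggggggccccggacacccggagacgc
Opalin: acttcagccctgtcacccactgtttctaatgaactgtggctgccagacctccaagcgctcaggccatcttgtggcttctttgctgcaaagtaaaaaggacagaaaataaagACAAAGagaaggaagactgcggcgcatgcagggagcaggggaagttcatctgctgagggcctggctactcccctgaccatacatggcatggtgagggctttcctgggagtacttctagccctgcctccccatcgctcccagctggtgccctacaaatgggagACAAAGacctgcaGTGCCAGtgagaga

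In the Mag and Cnp windows the CTGGCAC letters began 68 and 81 bases before the start site, and in Opalin GTGCCAG began at base 37 after it. The pool with the highest transcript level differed between these genes, and Mag and Opalin shared the lowest. Whether their levels rise and fall together across the pools was not tested. Mag was highest in CKO pool 3, Cnp in WT pool 3 and Opalin in WT pool 1, while WT pool 2 was the lowest pool for Mag and Opalin and CKO pool 2 for Cnp.

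Cntn2 had the largest positive log2 fold change of all members. Cntn2 (chromosome 1, 132509427 to 132543256, minus strand), a contactin that organises the axon beside the node of Ranvier and is also made by neurons, had 15.9, 9.24 and 24.2 CPM in the CKO pools, against 5.32, 10.2 and 1.64 CPM in the WT pools. CKO pools 1 and 3 exceeded every WT pool, whereas CKO pool 2 lay just below WT pool 2. Its log2 fold change of 1.52 (SE 0.74) did not pass (unadjusted p = 0.0775, adjusted p = 0.790 in edgeR), and WT pool 3 held only 62 reads. Leaving out single pools gave 1.09 to 2.31, the highest of them without WT pool 2. Gpr37, a receptor that restrains oligodendrocyte differentiation in mice, had 169, 127 and 241 CPM in the CKO pools, against 87.2, 125 and 199 CPM in the WT pools. CKO pool 3 was the highest and WT pool 1 the lowest. Gjc3, a connexin of myelinating glia, had 161, 168 and 99.8 CPM in the CKO pools, against 126, 169.7 and 216 CPM in the WT pools. Here CKO pool 3 was the lowest and WT pool 3 the highest. Evi2a, a membrane protein gene inside an intron of Nf1, had 40.6, 53.7 and 50.02 CPM in the CKO pools, against 50.2, 64.3 and 25.5 CPM in the WT pools. The pools of all 3 genes overlapped, with log2 fold changes of 0.38 (SE 0.37) for Gpr37, -0.26 (SE 0.30) for Gjc3 and 0.04 (SE 0.38) for Evi2a. That of Evi2a was -0.26 without WT pool 3 and -0.04 without CKO pool 2. Its span overlaps those of Evi2 and Nf1, and whether this affected its counts was not tested.

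Enzymes of myelin lipids and of acetate supply showed no common direction either. Ugt8a, which makes galactosylceramide, the main glycolipid of myelin, ranged from 119 to 178 CPM in CKO pools and from 74.1 to 203 CPM in WT pools and had a log2 fold change of 0.31 (SE 0.40). Fa2h, which hydroxylates the fatty acids of these lipids, ranged from 34.5 to 69.7 CPM in CKO pools and from 31.8 to 124 CPM in WT pools, and its log2 fold change of -0.44 (SE 0.54) was 0.33 without WT pool 3. Aspa, whose product releases acetate from N-acetylaspartate, had 22.5, 36.2 and 54.9 CPM in the CKO pools, against 33.2, 24.0 and 25.2 CPM in the WT pools. CKO pool 3 alone was clearly above the rest, and the log2 fold change of 0.46 (SE 0.40) was 0.13 without that pool. Leaving out other single pools gave up to 0.74, without CKO pool 1.

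The 2 transcription factors were at low levels. Myrf (chromosome 19, 10208272 to 10240748, minus strand), which switches on the myelin genes, had 12.3, 8.66 and 5.88 CPM in the CKO pools, against 19.4, 9.42 and 16.4 CPM in the WT pools. WT pools 1 and 3 exceeded all CKO pools, and WT pool 2 lay between CKO pools 1 and 2. It had the lowest log2 fold change of all members at -0.75 (SE 0.50), which did not pass (unadjusted p = 0.173, adjusted p = 0.800 in edgeR). The value rested on library 1. Libraries 1 and 2 gave 150 and 550 reads in CKO pool 1, 69 and 317 in CKO pool 2, and 46 and 253 in CKO pool 3. In the WT pools they gave 362 and 620 reads in pool 1, 292 and 107 in pool 2, and 445 and 175 in pool 3. Library 2 held more Myrf reads than library 1 in all CKO pools and in WT pool 1, and fewer in WT pools 2 and 3, and Myrf stood at -2.39 on the log2 scale when library 1 was fitted alone and at 0.17 with library 2 alone. Nkx6-2, a homeodomain factor of myelinating cells, had 0.877, 0.763 and 1.46 CPM in the CKO pools, against 1.03, 0.826 and 0.0795 CPM in the WT pools. WT pool 3, with 3 reads, was the lowest, and the other pools lay close together. Its log2 fold change of 0.67 (SE 1.03) was 0.15 without WT pool 3. Its span overlaps that of Inpp5a, which may affect its counts.

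Of the 6 genes of the cytoskeleton and signalling, 5 had a negative log2 fold change, and none passed. Sirt2, a deacetylase of tubulin, ranged from 429.9 to 559 CPM in CKO pools and from 517 to 700.4 CPM in WT pools, with a log2 fold change of -0.28 (SE 0.21). Plekhb1, a pleckstrin-homology protein, ranged from 366 to 414 CPM in CKO pools and from 333 to 514 CPM in WT pools, with -0.18 (SE 0.22). Bcas1, a marker of early myelinating cells, ranged from 45.2 to 69.1 CPM in CKO pools and from 58.8 to 64.3 CPM in WT pools, with -0.11 (SE 0.26). These 3 genes varied least among the 6. Ppp1r14a, an inhibitor of myosin phosphatase, had 4.42, 4.19 and 10.3 CPM in the CKO pools, against 11.5, 4.41 and 14.6 CPM in the WT pools. CKO pools 1 and 2 and WT pool 2 were nearly equal, the other pools were higher, and the log2 fold change was -0.69 (SE 0.65). Gsn, the actin-severing gelsolin, ranged from 149.6 to 257 CPM in CKO pools and from 209 to 372 CPM in WT pools. The log2 fold change of -0.30 (SE 0.32) was 0.02 without WT pool 3. Ermn, which binds actin in late oligodendrocytes, ranged from 41.98 to 97.3 CPM in CKO pools and from 33.0 to 107 CPM in WT pools. For Ermn the log2 fold change of 0.12 (SE 0.52) was 0.80 without WT pool 3. Ermn was at -0.24 without CKO pool 3, -0.07 without WT pool 1 and -0.14 without WT pool 2, and Bcas1 was at 0.06 without CKO pool 3. Plekhb1 was at -0.03 without WT pool 1.

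Cryab was the only member whose pools did not overlap between the genotypes. Cryab (chromosome 9, 50751325 to 50756636, plus strand), the small heat shock protein alpha B-crystallin, had 268, 337 and 304 CPM in the CKO pools, against 649.9, 399 and 433 CPM in the WT pools. Every CKO pool was below every WT pool, at 303 ± 34.4 CPM in CKO and 494 ± 136 CPM in WT pools (mean ± SD, n = 3 pools each). The log2 fold change was -0.71 (SE 0.25), and it did not pass after adjustment (unadjusted p = 0.0236, adjusted p = 0.790 in edgeR, exact permutation p = 0.1, the smallest that 3 against 3 pools can give). All CKO pools were below all WT pools for 8.17% of the genes tested and above them for 7.67%, against 1 and 0 of the 30 members. Fitted alone, library 1 gave -0.78 and library 2 gave -0.55 for Cryab. Without WT pool 1, its highest pool, it stood at -0.45. Astrocytes also make Cryab, and Hspb2 overlaps it on the other strand.

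The remaining secreted and metabolic genes overlapped between the genotypes. Qdpr, which recycles the cofactor of aromatic amino acid hydroxylases, and Apod, a secreted lipid carrier, showed the pattern seen for Mbp. Qdpr had 171, 163 and 228 CPM in the CKO pools, against 355, 174 and 339 CPM in the WT pools. Apod had 36.2, 57.4 and 82.0 CPM in the CKO pools, against 137, 44.7 and 101 CPM in the WT pools. In both genes WT pools 1 and 3 exceeded all CKO pools and WT pool 2 lay among them. The log2 fold changes were -0.63 (SE 0.32) for Qdpr and -0.69 (SE 0.47) for Apod, and without WT pool 1 they were -0.44 and -0.31. Car2, a carbonic anhydrase, had 585, 695 and 1057 CPM in the CKO pools, against 559, 716 and 678 CPM in the WT pools. CKO pool 3 was highest, and the log2 fold change of 0.26 (SE 0.26) was 0.01 without CKO pool 3. Enpp2, the enzyme autotaxin, ranged from 648 to 942 CPM in CKO and from 464 to 966 CPM in WT pools. Its log2 fold change of 0.26 (SE 0.33) was 0.08 without WT pool 1 and 0.66 without WT pool 3. Trf, the iron carrier transferrin, ranged from 43.1 to 98.5 CPM in CKO and from 40.7 to 87.2 CPM in WT pools. For Trf the log2 fold change of -0.02 (SE 0.42) was above 0 without CKO pool 1 (0.21), CKO pool 2 (0.12), WT pool 1 (0.02) or WT pool 3 (0.24) and -0.43 without CKO pool 3. Klk6, a secreted protease, was not tested, with 0, 3 and 7 reads in the CKO pools, against 0, 9 and 0 reads in the WT pools. A count of 0 allows up to 3 reads, or 0.0526 CPM in CKO pool 1, 0.0593 CPM in WT pool 1 and 0.0795 CPM in WT pool 3, for counting error only.

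Over the 30 tested members, 12 log2 fold changes were above 0 and 18 below, with a median of -0.15 beside -0.06 for all genes tested. None of the members passed the edgeR test, as for all genes, and DESeq2 called none either. At an unadjusted p under 0.05 there was 1 member, Cryab, lower in CKO, where 2.9% of all genes tested were lower and 3.01% higher at that threshold. The number was 0 without CKO pool 1 or CKO pool 3, 2 without WT pool 1 (Mog and Cryab), 3 without WT pool 3 (Ugt8a, Enpp2 and Cryab) and 6 without WT pool 2 (Mbp, Mobp, Cntn2, Apod, Qdpr and Cryab). The log2 fold change was within 0.5 of 0 for 20 members and for 48.5% of all genes tested. For 8 members WT pools 1 and 3 exceeded every CKO pool, as they did for 15.6% of all genes tested. These were Mbp, Mobp, Opalin, Myrf, Ppp1r14a, Apod, Qdpr and Cryab, a pattern picked out after the values were seen. WT pool 2 was above every CKO pool for Cryab alone among them, and below every CKO pool for Mobp and Opalin.

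**Figure D2:**
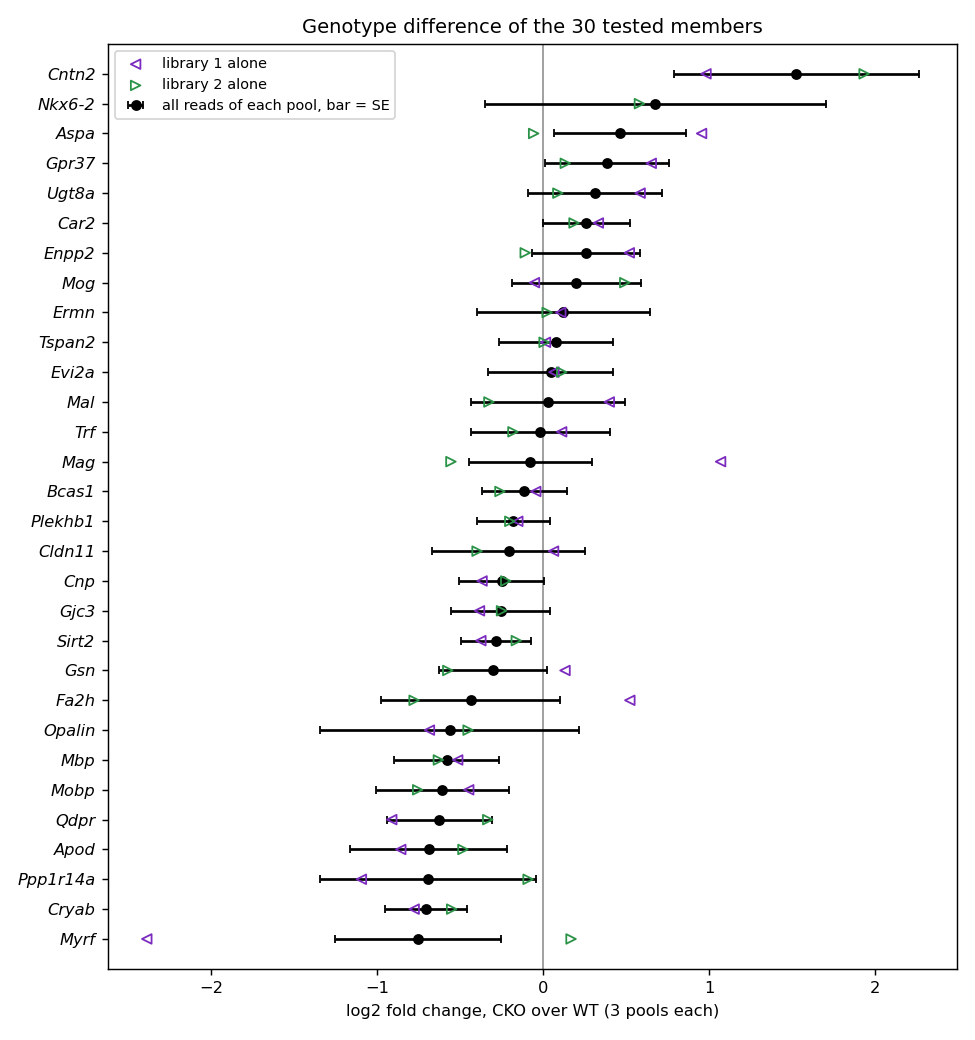
Log2 fold change of CKO over WT for the 30 tested genes, from edgeR on 3 against 3 pools, with bars of 1 SE. Triangles give the same fit on library 1 alone and on library 2 alone. Most bars cross 0, and Myrf, Mag and Fa2h lie on opposite sides of 0 in library 1 (-2.39, 1.07 and 0.52) and library 2 (0.17, -0.56 and -0.78).

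The repeat libraries of a pool differed for many members, more so in WT pools. The number of the 30 members that differed by more than 2-fold between the libraries was 4, 6 and 5 in the CKO pools, against 15, 11 and 8 in the WT pools. Of all genes tested, the share was 26.5, 40.1 and 36.6% in the CKO pools and 53.3, 47.0 and 57.0% in the WT pools. Mag had 68 reads in library 1 of WT pool 3 and 4305 in library 2, and Fa2h had 370 and 4328. In WT pool 1 the libraries gave 316 and 1851 reads of Ermn and 3535 and 19936 reads of Enpp2. Library 2 of WT pool 1 was the higher for 21 of the 30 members, whereas 51.1% of all genes tested were lower in it than in library 1. The median difference of library 2 minus library 1 over the members was -0.09, -0.17 and -0.03 log2 units in the CKO pools, against 0.61, 0.06 and -0.31 in the WT pools. Over all genes tested this median lay between -0.01 (CKO pool 2) and 0.05 (WT pool 2). Mean log2 CPM of the 30 members was 6.17, 6.11 and 6.47 in library 1 of the CKO pools and 6.09, 5.89 and 6.57 in library 1 of the WT pools. In library 2 it was 6.26, 6.26 and 6.60 in CKO pools and 6.61, 5.96 and 6.54 in WT pools. The genotype difference had the same sign in both libraries for 19 of 29 members and for 59.3% of the 17609 genes tested in both.

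**Figure D3:**
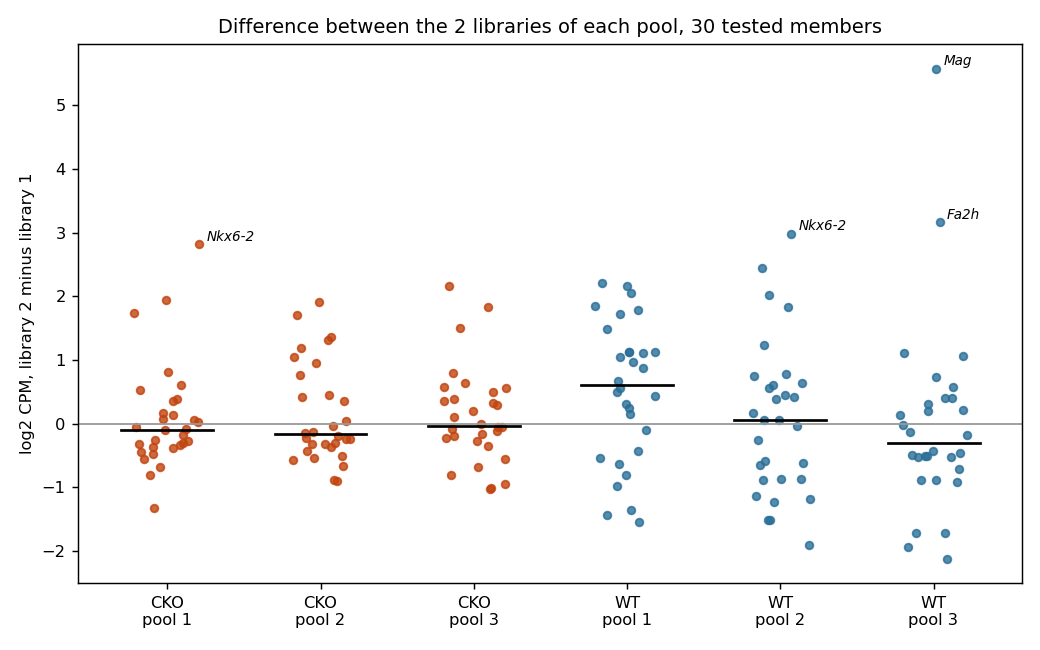
Difference in log2 CPM between library 2 and library 1 of each pool, 1 point per gene for the 30 tested genes, with the median as a black line. WT pools 1 and 2 have the most genes beyond a 2-fold difference, 15 and 11. The points of WT pool 3 span the widest range, from -2.12 (Ppp1r14a) to 5.58 (Mag), the farthest point.

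Other genes of mature oligodendrocytes, not among the 31, were likewise detected. Of 24 such genes 23 were tested, 7 with a log2 fold change above 0 and 16 below, with a median of -0.29. Of all 21477 genes tested, 10140 were above 0 and 11337 below, with a median of -0.06. None of the 23 passed the adjusted threshold, and at an unadjusted p under 0.05 there was 1 higher and 3 lower. At that threshold 3.01% of all genes tested were higher and 2.9% lower. Pllp, the raft protein plasmolipin, had 756, 687 and 368 CPM in the CKO pools, against 1164, 891 and 976 CPM in the WT pools, without overlap. Its log2 fold change of -0.74 (SE 0.30) did not pass (unadjusted p = 0.0407, adjusted p = 0.790 in edgeR). Josd2, a deubiquitinase, had 44.7, 32.1 and 41.2 CPM in the CKO pools, against 63.5, 49.7 and 84.6 CPM in the WT pools, also without overlap, and a log2 fold change of -0.75 (SE 0.30). Tmem125 had 4.98, 1.84 and 2.60 CPM in the CKO pools, against 18.5, 1.77 and 45.0 CPM in the WT pools, and its log2 fold change of -2.79 (SE 1.07) came from WT pools 1 and 3. On this list, whose genes were chosen with earlier results known, 2 of 23 genes were below all WT pools in every CKO pool, against 8.17% of all genes tested.

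Stages before the mature cell did not differ in a common direction between the genotypes, and CKO pool 3 stood apart. Of 8 lineage transcription factors 2 were above 0 and 6 below (median -0.17). Of 8 genes of committed precursors 4 were on each side (median -0.03), and of 11 precursor markers 5 were above and 6 below (median -0.03). These lists overlap, since the precursor list shares Olig1 with the lineage list and Gpr17 with the committed list. Olig1, a lineage factor, had 994, 639 and 370.4 CPM in the CKO pools, against 438, 665 and 949.7 CPM in the WT pools. Sox8, a relative of Sox10, had 176, 178 and 98.0 CPM in the CKO pools, against 154, 178 and 244 CPM in the WT pools. Their log2 fold changes were -0.03 and -0.35, and that of Zfp488, a cofactor of Olig2, was -0.20. Neu4, a sialidase, and Gpr17, a receptor of the committed stage, were at 243 to 669 and 134 to 454 CPM in CKO pools, against 491 to 611 and 227 to 299.6 CPM in WT pools. Tmem163, a zinc transporter, was at -1.17 with every CKO pool below every WT pool, and the calcium channel Itpr2 at 0.31. Every CKO pool was below every WT pool for 1 of the 8 committed genes and 2 of the 11 precursor markers. That was so for 8.17% of all genes tested. Pdgfra, the growth factor receptor of precursors, had 1414, 1289 and 429 CPM in the CKO pools, against 620.3, 1063 and 1216 CPM in the WT pools. Ptprz1, the other most abundant precursor marker, was at 0.29, and C1ql1 and Cspg5, with the smallest p, at -0.93 and -0.31. Mean log2 CPM of the precursor markers was 8.30, 8.05 and 7.09 in the CKO pools, against 7.62, 8.09 and 8.30 in the WT pools. CKO pool 3 was the lowest pool for the precursor, committed and lineage lists and the highest for the surface and adhesion genes of myelin, whose mean log2 CPM was 5.84, 5.74 and 6.26 in the CKO pools, against 5.92, 5.44 and 5.54 in the WT pools. In the compact myelin group WT pool 3 was highest and WT pool 2 lowest, with 7.13, 6.74 and 7.27 in the CKO pools, against 7.41, 6.49 and 7.76 in the WT pools.

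**Figure D4:**
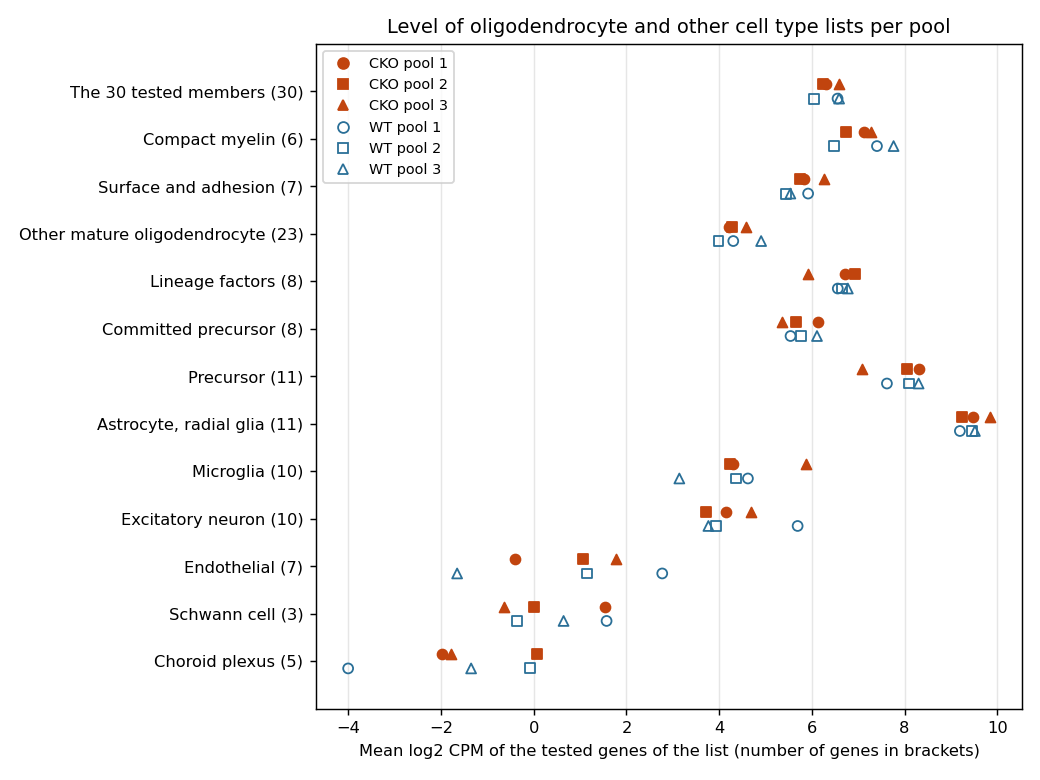
Mean log2 CPM of the tested genes of each list in every pool, with CKO pools filled and above the open WT pools of the same list. The 30 members lie between 6.04 and 6.60 in all 6 pools, below precursor and astrocyte lists and above the endothelial, Schwann cell and choroid plexus lists.

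Genes that supply and arrange myelin did not differ in a common direction. Among 12 enzymes of sphingolipid and long-chain fatty acid metabolism 7 were above 0 and 5 below (median 0.09). Asah1, a lysosomal ceramidase, had 274, 282 and 323 CPM in the CKO pools, against 166, 248 and 236 CPM in the WT pools. Every CKO pool was above every WT pool, at 0.43 (SE 0.23) on the log2 scale (unadjusted p = 0.0936, adjusted p = 0.790 in edgeR). Such a lack of overlap held for 2 of the 12 enzymes and for 7.67% of all genes tested. Sptlc2, of the first step of sphingolipid synthesis, had a log2 fold change of -0.57 (SE 0.36). The most abundant of these genes were Degs1, a ceramide desaturase, and Fads2, a fatty acid desaturase (0.12 (SE 0.19) and 0.35 (SE 0.25)). Of 7 genes of the node and paranode, where myelin meets the axon, 4 were above 0 and 3 below (median 0.26). Cntn1, the paranodal contactin, and Nrcam, a nodal adhesion molecule, were the most abundant (0.33 (SE 0.37) and 0.45 (SE 0.27)), and Ank3, the nodal ankyrin, had -0.74 (SE 0.51).

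Markers of other cell types were read beside these values. Pmp2, a lipid-binding protein of peripheral myelin, was near 0, at 0 to 0.118 CPM in the 6 pools. Among 8 Schwann cell genes only 3 were tested, led by the factors Pou3f1 and Egr2 (-0.13 and -0.64 on the log2 scale). Choroid plexus also makes Enpp2 and Trf. Its defining gene Ttr had 0 reads in CKO pool 1 and in all WT pools and at most 0.852 CPM elsewhere. The summed level of its 9 genes was 4.60, 10.1 and 2.93 CPM in the CKO pools, against 0.119, 9.13 and 4.64 CPM in the WT pools, with Prlr and Sostdc1 the most abundant, and Kl and Otx2, at 2.88 and -4.41, had the smallest p. Fibroblasts express Apod and Gsn, and 7 fibroblast genes summed to 15.3, 7.18 and 22.3 CPM in the CKO pools, against 21.2, 11.8 and 34.6 CPM in the WT pools. Col1a1 and Lum led them, and Col1a2 had 0.404, 0.381 and 0.354 CPM in the CKO pools, against 0.574, 1.25 and 12.8 CPM in the WT pools, which WT pool 3 set apart (log2 fold change -3.67 (SE 1.29), unadjusted p = 0.0242, adjusted p = 0.790 in edgeR). Red blood cells contain Car2, and their 6 genes, led by Hba-a1 and Hba-a2 (-1.51 and -1.53, with Hbb-bs at -1.96), summed to 14.3, 27.0 and 118 CPM in the CKO pools, against 392, 18.4 and 55.1 CPM in the WT pools.

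Astrocyte and radial glia genes, whose sums are given above, were led by Aldoc and Slc1a3 (-0.35 and 0.46 on the log2 scale). In that list 7 of 11 genes were above 0, with Gja1 at 0.70 (SE 0.31) and Gfap at 0.52 (SE 0.28). Microglial genes summed to 299.96, 284 and 777 CPM in the CKO pools, against 376, 314 and 372 CPM in the WT pools, highest in CKO pool 3, with 9 of 10 genes above 0 and C1qb among the most abundant (0.06), while P2ry12 and C1qc had 1.14 (SE 0.80) and 0.67 (SE 0.49). Genes of excitatory neurons, which also make Cntn2, summed to 373, 399 and 453 CPM in the CKO pools, against 1003, 356 and 579 CPM in the WT pools and were highest in WT pool 1, with 8 of 10 genes below 0. Camk2a and Snap25 led them (-1.12 and -0.49), and Camk2b and Olfm1 had -0.81 (SE 0.49) and -0.87 (SE 0.44). Endothelial and mural genes were highest in WT pool 1, at summed levels of 9.70, 25.7 and 39.5 CPM in the CKO pools, against 108, 26.9 and 18.7 CPM in the WT pools for endothelial and 61.8, 53.2 and 97.5 CPM in the CKO pools, against 108, 93.2 and 35.9 CPM in the WT pools for mural genes. Tek and Kdr had the smallest p of the endothelial list (-2.84 and -2.64) and Cldn5 and Ly6c1 the highest level (-1.53 and -1.91). In the mural list these were Kcnj8 and Vtn (-3.65 and -1.34) and Pdgfrb and Rgs5 (0.19 and 0.10). Ependymal genes were near the detection limit, at 2.54, 5.85 and 3.15 CPM in the CKO pools, against 6.53, 3.92 and 4.11 CPM in the WT pools in sum, with Rsph1, Cfap126 and Dynlrb2 (1.14, -0.67 and -3.42). None of the genes of these lists passed the adjusted threshold, and the part of other cell types in the values of the 31 genes was not tested.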

How the data were processed

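The deposited files hold whole-number read counts per gene symbol, made by the authors with Bowtie2 and HTSeq on GRCm38 per the submitters' processing notes, and the versions and the annotation are not given in the sources used here. Libraries were made with Smart-Seq2 and Nextera XT per the labels' protocols, a method that does not mark strand. There were 24 count files, 4 for each of 6 pools (2 libraries on 2 lanes each), with 48321 gene symbols. Lanes of a library agreed within sampling noise, and the 4 files were added to give 1 replicate per pool. The 5 summary lines were left out of library sizes. Reads with no feature were 16.0% (WT pool 1) to 35.3% (CKO pool 2) and ambiguous reads 2.51% to 3.43% of a pool's total. Reads not aligned were 11.2% (CKO pool 2) to 21.7% (WT pool 3). Symbols with at least 1 read numbered 26502 (WT pool 1) to 38187 (CKO pool 2).

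Genes were kept by filterByExpr and tested with edgeR 4.0.16 in R 4.3.3 (TMM scaling, robust quasi-likelihood fit, group as the only term, Benjamini-Hochberg adjustment over all 21477 genes tested), and with DESeq2 1.42.0 as an alternative. The common biological coefficient of variation was 0.725. Exact permutation tests were two-sided. Alternatives were another scaling, no filter, a replicate block, each library alone and each pool left out. Coordinates and merged exon lengths were taken from the GENCODE M21 annotation (GRCm38), which listed the symbols of 96.4% of the genes tested. Detection limits cover counting error only. The standard errors come from the quasi-likelihood fit over pools and so include variation between pools.

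The members and the other gene lists were chosen with earlier results of these data known. All members are named. Values in every pool are given for the groups of compact myelin and surface proteins, for the 3 largest log2 fold changes in each direction and for members without overlap. From the other lists, the 2 genes with the smallest p and the 2 with the highest level are named, and a few more pool values were added after they were seen. Results of some genes under this rule are not reported here. Zfp191 of the lineage list was not found by symbol and was not analysed here.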

Additional observations from a re-analysis of the deposited data

How the results depend on the processing

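No member passed the adjusted threshold under any of 13 alternative settings. Over all genes DESeq2 called 129 and edgeR 0 in its other settings. The number of members at an unadjusted p under 0.05 was 1, and it was 2 with DESeq2 and 2 with no filter (Cntn2 and Cryab each time), 0 with the replicate block and 0 with library 2 alone. Leaving out single pools gave 0 to 6. Library 1 alone also gave 1 member, Myrf in place of Cryab. To look for pairs, the mean of each genotype was first subtracted from the log2 CPM of each gene. The remaining deviations of CKO and WT pools of the same number correlated at 0.06, 0.02 and -0.03. Not every CKO pool correlated best with the WT pool of its own number, so the numbers were not read as pairs. The median log2 fold change of the members was -0.08 with the replicate block, 0.01 with library 1 alone and -0.22 to 0.01 when single pools were left out, where 0.01 was without WT pool 3.

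Of the 30 members 15 kept their sign in every setting in which they were tested, 10 below 0 and 5 above, with Nkx6-2 not tested in library 1 alone. With library 1 alone the log2 fold change turned to 0.0617 for Cldn11, -0.0532 for Mog, 1.07 for Mag, 0.52 for Fa2h, 0.13 for Gsn and 0.11 for Trf. With library 2 alone it turned to -0.33 for Mal, -0.058 for Aspa, 0.17 for Myrf and -0.11 for Enpp2. Without a scaling factor, which moved the median of all genes to 0.04 in place of -0.06, it was 0.0107 for Mag and 0.067 for Trf, and with no filter, which put the median of all genes at 0.07, 0.00664 for Trf. When single pools were left out the sign turned for 12 members, with ranges of -0.28 to 0.65 for Mal, -0.52 to 0.17 for Cldn11, -0.14 to 0.28 for Tspan2, -0.00816 to 0.72 for Mog, -0.34 to 0.14 for Mag, -1.01 to 0.18 for Opalin, -0.26 to 0.41 for Evi2a, -0.76 to 0.33 for Fa2h, -0.24 to 0.80 for Ermn, -0.28 to 0.0625 for Bcas1, -0.45 to 0.0215 for Gsn and -0.43 to 0.24 for Trf. The cause was not tested.

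With 3 pools per genotype the exact test cannot go below 0.1, and the few reads of Klk6 and, in WT pool 3, of Nkx6-2 limit what can be said of these genes.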

Other observations

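Among the 30 tested members the highest of the 6 pools was CKO pool 3 for 7 (23.3%), WT pool 1 for 9 (30%) and WT pool 3 for 11 (36.7%). Of all genes tested, the highest was CKO pool 3 for 12.6%, WT pool 1 for 25.0% and WT pool 3 for 24.5%. The lowest pool was WT pool 2 for 8 members, beside 9.51% of all genes tested for which WT pool 2 was lowest. The ratio of the highest to the lowest pool of a genotype had a median over the members of 1.76 in CKO pools and 2.11 in WT pools, and over all genes tested of 1.77 in CKO pools and 2.81 in WT pools. The WT pools had the wider ratio for 23 of the 30 members and for 73.4% of all genes tested. The summed level of the members was 0.514%, 0.517% and 0.581% of the scaled reads in CKO pools 1, 2 and 3, against 0.598%, 0.490% and 0.685% in WT pools 1, 2 and 3.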
